A study of Homo sapiens with 4 samples.

Results

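Arm peaks of the small chromosomes 16, 17, 19, 20 and 22 were examined for H3K9me3, trimethylation of lysine 9 of histone H3. The cells were Ishikawa, a line established from a human endometrial cancer, fixed with formaldehyde and sonicated. A peak was taken where its summit lay on the arms of these chromosomes, outside a broad interval around the centromere, and more than 1 kb from either end of every RefSeq gene. Only position chose the peaks. The rule found 103 of the 1165 peaks called in the cells labelled NC, which had no treatment, and 144 of the 3785 called in the cells labelled OE-KDM4A. With peaks of the same start and end counted once over both lists, these were 245 of 4930 regions. The label OE names KDM4A, a histone demethylase of the JmjC family, and no vector, promoter, clone or expression level is given in the labels. Each condition had 1 immunoprecipitated and 1 input library, the peak lists are those of the immunoprecipitated libraries, and no difference between conditions has a replicate check. Square brackets hold exact 95% intervals, which take in counting error alone. The sources used here give no read depth for the libraries.

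H3K9me3 is laid down by methyltransferases such as SUV39H1, SUV39H2 and SETDB1, read by HP1 proteins and removed by demethylases that include KDM4A. It is best known from the satellite repeats around centromeres, from silenced transposable elements and from clusters of zinc finger genes, many of which lie on chromosome 19. Chromosome arms rich in active genes hold little constitutive heterochromatin in most cells. A peak caller marks places where stacked ChIP fragments exceed a background taken from the input. In a list of that kind an uncalled place may still carry the mark.

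The arms examined held 15.3 protein-coding genes per Mb, against 6.12 per Mb on the arms of the other autosomes and X. Those other arms were cut around the longest stretch without a gene, while fixed intervals were left out on the 5 chromosomes. Gene richness was uneven among the 5. Chromosome 19 had 30.7 protein-coding genes per Mb of arm, chromosome 17 had 15.3, chromosome 22 had 12.4 and chromosome 16 had 11.5. Chromosome 20 had 8.56, close to the 8.24 of the arms of chromosome 12, and its short arm had 6.94. The long arm of chromosome 16, with 8.89, and the long arm of chromosome 20, with 9.71, were also near that level. The name gene-rich therefore holds for the 5 chromosomes together, and least for chromosome 20 and the long arm of chromosome 16.

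Peak sequences are not printed, since no genome sequence was used here. The gene starts nearest to strong peaks could be shown from RefSeq (GRCh38.p14). MAF and PTGER1 were taken because they are the 2 genes in which a peak among the 10 highest by −log10 q of its list lay within 2 kb downstream of the gene start. The 250 bases before each start are given 5′ to 3′ on the minus strand, with every CG dinucleotide, the site of DNA methylation, in capitals. No peak lay in these bases. The MAF stretch (chr16:79600738-79600987) held 16 CG and the PTGER1 stretch (chr19:14475355-14475604) held 12, and the median over 35116 such stretches was 11. At least 1 CG, which reads the same on both strands, was present in 93.9% of them.
MAF: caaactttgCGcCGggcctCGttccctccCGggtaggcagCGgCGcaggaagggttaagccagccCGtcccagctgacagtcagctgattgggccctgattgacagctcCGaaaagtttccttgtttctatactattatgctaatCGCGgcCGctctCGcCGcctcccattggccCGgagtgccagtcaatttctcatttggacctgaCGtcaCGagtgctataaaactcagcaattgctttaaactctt
PTGER1: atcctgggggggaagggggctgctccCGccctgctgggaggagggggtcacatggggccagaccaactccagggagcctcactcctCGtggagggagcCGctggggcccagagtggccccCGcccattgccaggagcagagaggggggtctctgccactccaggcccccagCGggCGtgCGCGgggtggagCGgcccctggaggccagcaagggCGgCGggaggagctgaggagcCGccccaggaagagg

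Among arm peaks more than 1 kb from gene ends, the lists were closer in number here than on the arms of the other autosomes and X. The 144 OE-KDM4A and 103 NC peaks gave a ratio of 1.40 [1.08 to 1.82]. Without chromosome 20 it was 1.14 [0.845 to 1.53] and without chromosome 17 it was 1.28 [0.944 to 1.75], and both intervals include equal numbers. It was 0.214 when the OE-KDM4A list was limited to its 1165 peaks of highest −log10 q, the length of the NC list, which left 22 peaks against 103. That cut took weak peaks from OE-KDM4A alone, while NC kept all of its own, so the lists were not held to 1 limit. With a −log10 q of at least 5 in both lists the ratio was 1.56 [0.831 to 2.99], from 28 and 18 peaks. On the arms of the other autosomes and X, peaks more than 1 kb from gene ends numbered 2104 and 379 in the whole lists, a ratio of 5.55 [4.97 to 6.21]. They numbered 341 and 43 on the arms of the gene-poor chromosomes 4 and 5, a ratio of 7.93 [5.76 to 11.2], and 286 and 31 on chromosome 12, a ratio of 9.23 [6.36 to 13.8]. Seen from the lists, the arms of chromosomes 16, 17, 19, 20 and 22 held 8.84% [7.27 to 10.6] of all NC peaks and 3.8% [3.22 to 4.46] of all OE-KDM4A peaks. Among arm peaks more than 1 kb from gene ends these shares were 21.4% [17.8 to 25.3] and 6.41% [5.43 to 7.5].

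Peak densities differed from those of the other arms in both lists. Per Mb of sequence that met the rule, NC had 0.439 peaks [0.358 to 0.533], against 0.169 [0.153 to 0.187] on the other arms. OE-KDM4A had 0.614 [0.518 to 0.723], against 0.939 [0.899 to 0.98]. The NC density was above that of the other arms and the OE-KDM4A density below it, each by more than the counting intervals. Without peaks at the lowest control background of their list, described with the pileups, the OE-KDM4A densities were 0.371 [0.297 to 0.458] here and 0.378 [0.353 to 0.404] on the other arms, and no difference was detectable. The NC densities were then 0.422 [0.343 to 0.514] and 0.157 [0.141 to 0.174].

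The 5 chromosomes did not behave alike. Chromosome 19 held 28 NC and 19 OE-KDM4A peaks, and chromosome 22 held 15 and 10. Their ratios were 0.679 [0.358 to 1.26] and 0.667 [0.268 to 1.59], and both intervals include equal numbers. Chromosome 16 held 20 NC and 27 OE-KDM4A peaks, a ratio of 1.35 [0.729 to 2.54]. Chromosome 17 held 25 and 44, a ratio of 1.76 [1.05 to 3.0]. Chromosome 20 held 15 and 44, a ratio of 2.93 [1.60 to 5.67].

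**Figure D1:**
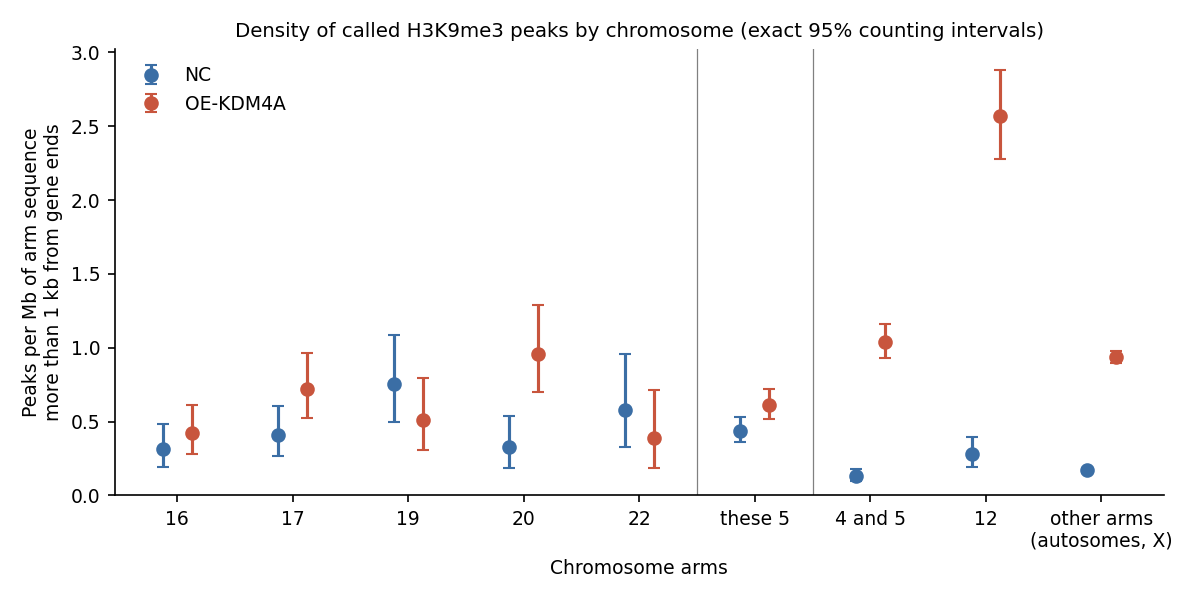
Peaks per Mb of arm sequence more than 1 kb from gene ends (y axis) for each chromosome, for the 5 together and for the comparison arms (x axis), NC in blue and OE-KDM4A in red, with exact 95% counting intervals. NC runs from 0.311 per Mb on chromosome 16 to 0.751 on chromosome 19, and OE-KDM4A from 0.387 on chromosome 22 to 0.959 on chromosome 20.

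The OE-KDM4A peaks of chromosome 20 were mostly on its short arm. It held 35 of the 144 OE-KDM4A peaks, 1.81 per Mb [1.26 to 2.52], and 10 of the 103 NC peaks, 0.517 per Mb [0.248 to 0.951]. The long arm of the same chromosome held 9 and 5, or 0.339 per Mb [0.155 to 0.644] and 0.188 per Mb [0.0612 to 0.440]. Among the arms of the 5 chromosomes, the short arm of chromosome 17 came next with 0.991 [0.555 to 1.63]. The arms of chromosome 12 had more, 2.57 OE-KDM4A peaks per Mb [2.28 to 2.88].

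Most peaks on these arms were shallow. A −log10 q, the peak caller's false discovery estimate on a log scale, had a median of 2.27 (quartiles 1.75 and 3.83) in NC and 3.30 (1.85 and 4.57) in OE-KDM4A. It was at least 5 in 18 of 103 NC peaks (17.5%, background over the whole list 42.7%) and in 28 of 144 OE-KDM4A peaks (19.4%, background 36.5%). The whole lists include the repeats around centromeres. On the other arms 42 of 379 NC peaks and 361 of 2104 OE-KDM4A peaks reached this limit. The median fold enrichment over the control background was 4.42 in NC and 4.72 in OE-KDM4A. These values differed little from those of the other arms, with a median −log10 q of 2.25 in NC and 2.67 in OE-KDM4A and a median fold enrichment of 4.39 and 4.72. All fold enrichments and q-values here were computed by the authors' peak caller.

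The ChIP pileup, the number of fragments stacked at a summit, and the control background there were recovered from the deposited fold enrichment and −log10 p. The median pileup was 9 fragments in NC and 9.5 in OE-KDM4A, and it was 10 or fewer in 75 of the NC peaks (72.8%) and 89 of the OE-KDM4A peaks (61.8%). Low pileups were common on the other arms too, where the median was 9 in both lists. More than 10 fragments were recovered there at 81 of 379 NC peaks and 546 of 2104 OE-KDM4A peaks, against 28 of 103 and 55 of 144 here. The background had a median of 1.24 fragments in NC and 1.05 in OE-KDM4A. The lowest value of the NC list, 0.811 fragments, was met at 4 NC peaks (3.88%, whole list 8.24%). In OE-KDM4A, 57 (39.6%, whole list 49.1%) had its lowest value, 0.905 fragments, as did 59.8% on the other arms and 70.4% on chromosomes 4 and 5. Without the peaks at the lowest background of each list the numbers were 99 in NC and 87 in OE-KDM4A, a ratio of 0.879 [0.651 to 1.18], and on the other arms 352 and 846, a ratio of 2.40 [2.12 to 2.73]. The direction of the ratio on the small chromosomes thus turned with these peaks, and the interval includes equal numbers. The part of input depth in this was not tested.

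**Figure D2:**
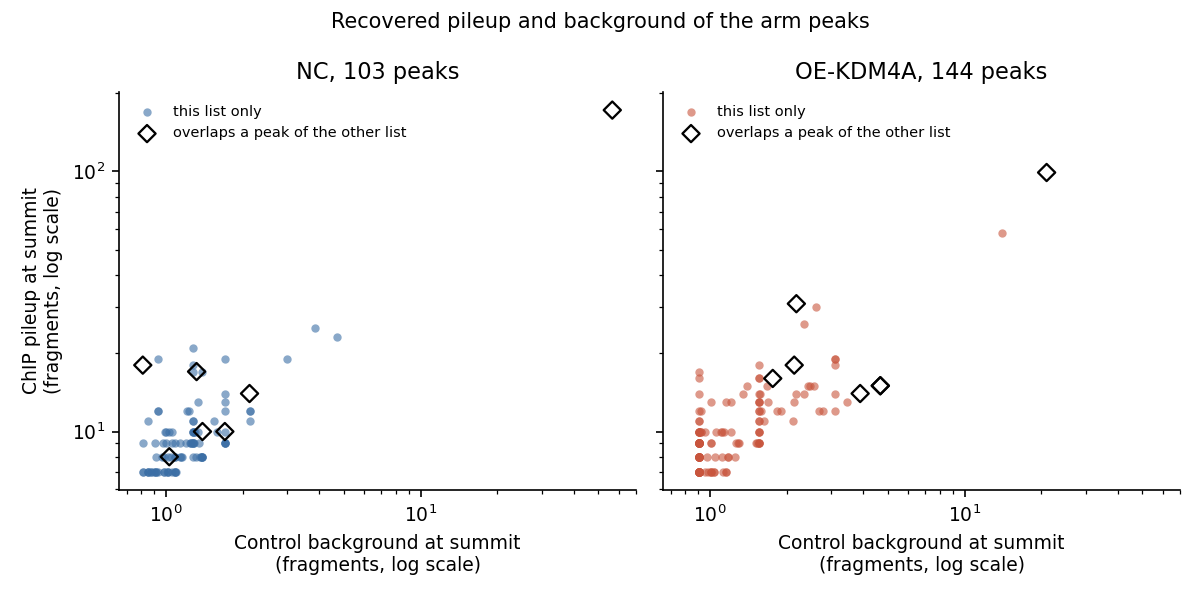
Recovered ChIP pileup (y axis, fragments, log scale) against control background (x axis, fragments, log scale) at each summit, NC on the left and OE-KDM4A on the right, with diamonds for peaks that overlap a peak of the other list. Most points lie near 10 fragments, the vertical row of red points at the left is the lowest background of OE-KDM4A (57 peaks), and the diamond at the top right of each panel is the region near ZNF285.

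The lists shared few of these peaks. By an overlap of at least 1 bp, 7 of the 103 NC peaks (6.80% [2.78 to 13.5], whole list 34.7%) lay on an OE-KDM4A peak. Seen from OE-KDM4A they were 7 of 144 (4.86% [1.98 to 9.76], whole list 10.2%). The whole-list shares include the repeats around centromeres. On the other arms the shares were 6.33% in NC and 1.09% in OE-KDM4A. A distance of up to 5 kb added no peak, and one of up to 50 kb gave 16 NC and 17 OE-KDM4A peaks.

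The strongest peak of both lists on these arms lay between genes on the long arm of chromosome 19, 9.88 kb from ZNF285, a zinc finger gene. The NC peak spanned 44411409 to 44411566 and the OE-KDM4A peak 44411374 to 44411582 (hg38). Its −log10 q was 29.4 in NC and 30.2 in OE-KDM4A, with a pileup of 172 and 99 fragments. The background was also the highest of each list on these arms, at 56.6 and 21.0 fragments, so that the fold enrichment was 3.0 in NC and 4.54 in OE-KDM4A.

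The next strongest shared region lay within MAF, which encodes a basic leucine zipper transcription factor. It started at 79599188 on chromosome 16 in both lists and ended at 79599347 in NC and 79599407 in OE-KDM4A. The summits were 1531 and 1405 bp downstream of the MAF start, the sequence before which is shown above. The fold enrichment was 10.5 in NC and 10.0 in OE-KDM4A, the −log10 q 14.4 and 21.0, and the pileup 18 and 31 fragments over a background of 0.811 and 2.18. This was the highest fold enrichment of either list on these arms.

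A pair of shared peaks had a higher fold enrichment in OE-KDM4A and the same start and end in both lists. In CBX2, the gene of a Polycomb chromobox protein, the peak on chromosome 17 from 79778557 to 79778680 had a fold enrichment of 4.07 in NC and 6.05 in OE-KDM4A, with pileups of 10 and 18. In BFSP1, the gene of the lens filament protein filensin, the peak on chromosome 20 from 17531137 to 17531271 had 4.43 and 6.15, with pileups of 8 and 16. Both lay well below MAF in NC, with a −log10 q of 2.01 and 2.11, and above 7 in OE-KDM4A (7.63 and 7.05).

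The remaining shared peaks had a lower fold enrichment in OE-KDM4A. In RYR1, the gene of the skeletal muscle calcium release channel, the peak near 38565414 on chromosome 19 had 7.76 in NC and 3.07 in OE-KDM4A. In MBD3, which encodes a subunit of the NuRD chromatin complex, the peak from 1578389 on chromosome 19 had 4.79 and 2.82. In SPIRE2, the gene of an actin nucleator, the peak from 89850325 on chromosome 16 had 4.60 and 2.82. Their pileups were 17, 14 and 10 fragments in NC and 14, 15 and 15 in OE-KDM4A, while the background was 1.32, 2.13 and 1.39 in NC and 3.89, 4.67 and 4.67 in OE-KDM4A.

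Of the 7 shared peaks, 3 had the higher fold enrichment in OE-KDM4A, against 318 of 404 (78.7%) over all NC peaks that overlap an OE-KDM4A peak. On the other arms it was 18 of 24. At 6 of the 7 the control background was the higher in OE-KDM4A, the region near ZNF285 being the exception. Of the 404 regions, 335 had a recovered pileup in both lists, and the OE-KDM4A background was the lower at 261 of these. A higher pileup in OE-KDM4A was found at 5 of the 7, and at 142 of the 335. Of 22 regions so recovered on the other arms, the OE-KDM4A background was the lower at 13 and its pileup the higher at 9. The summits compared were those of each list's own peak.

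**Figure D3:**
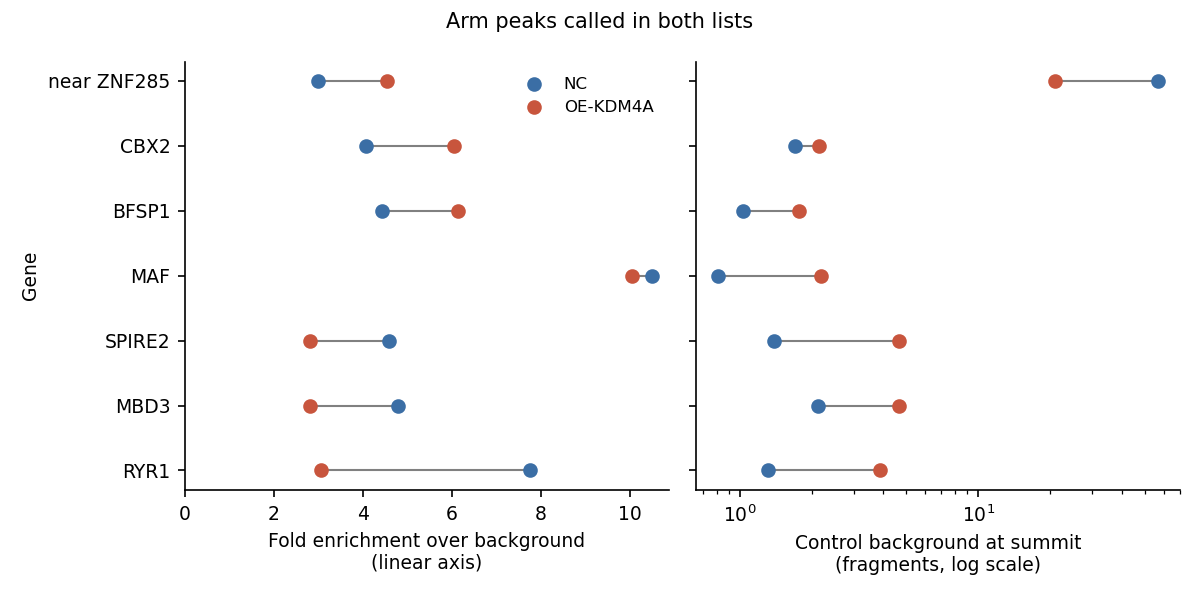
Fold enrichment (left, linear axis) and control background at the summit (right, fragments, log scale) of the 7 peaks called in both lists, NC in blue and OE-KDM4A in red, named by the gene they lie in or beside. The top 3 have a higher fold enrichment in OE-KDM4A, and 6 of 7 a higher background.

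Peaks of NC lay inside genes more often than those of OE-KDM4A. A summit inside the span of a protein-coding gene was found for 73 of 103 NC peaks, 70.9% [61.1 to 79.4], and for 70 of 144 in OE-KDM4A, 48.6% [40.2 to 57.1]. Of all arm positions that met the same rule, 55.6% were inside a protein-coding gene. A further 7 NC and 15 OE-KDM4A peaks lay only in a long non-coding RNA gene or a pseudogene, and 23 NC (22.3% [14.7 to 31.6]) and 59 OE-KDM4A (41.0% [32.9 to 49.5]) lay between genes. NC was thus above the share of the positions and OE-KDM4A not apart from it by more than the counting interval. On chromosome 20 the share inside protein-coding genes was 34.1% [20.5 to 49.9] (15 of 44) in OE-KDM4A, an interval that includes the 48.0% of positions there. With chromosome 20 left out, NC had 71.6% [61.0 to 80.7] and OE-KDM4A had 55.0% [44.7 to 65.0], and these intervals overlap. Leaving out the lowest-background peaks gave NC 70.7% [60.7 to 79.4] and OE-KDM4A 52.9% [41.9 to 63.7], which overlap too.

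**Figure D4:**
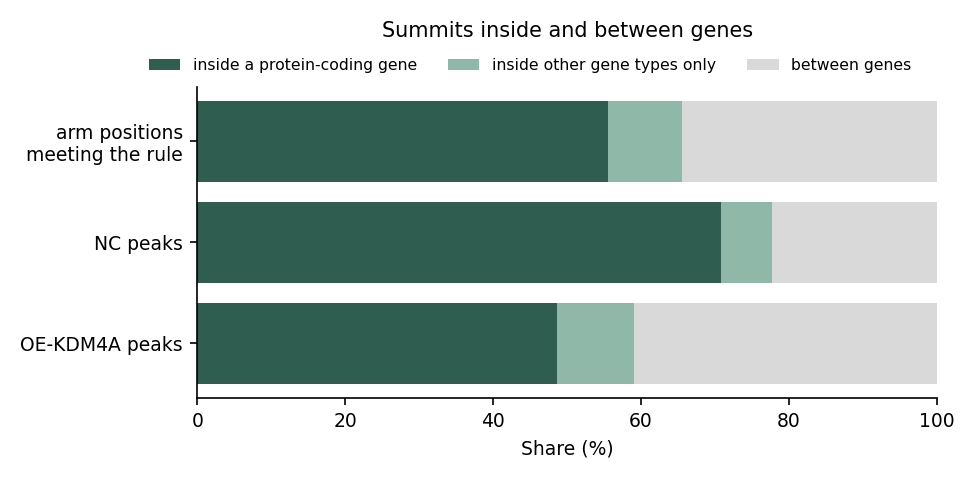
Share (x axis, percent) of arm positions that meet the rule, of NC peaks and of OE-KDM4A peaks that lie inside a protein-coding gene, only inside another gene type, or between genes. The dark part is 55.6% for positions, 70.9% for NC and 48.6% for OE-KDM4A.

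The genes around the peaks differed in number as well. Within 500 kb of the summit lay a median of 19 protein-coding genes in NC (quartiles 9.5 and 31.5) and 8 in OE-KDM4A (3.75 and 19.2), against 11 (5 and 23) at positions that met the rule. Surroundings with at least 20 such genes held 51 NC peaks (49.5% [39.5 to 59.5]) and 36 from OE-KDM4A (25% [18.2 to 32.9]), and 31.0% of positions. Surroundings with at most 5 held 13 NC peaks (12.6% [6.9 to 21]) and 51 from OE-KDM4A (35% [27.6 to 43.8]), and 28.7% of positions. Both of these OE-KDM4A intervals take in the share of positions. Without chromosome 20 the medians were 21 and 12.5. Within chromosome 16 they were 16 and 6, within 17 they were 17 and 11, within 19 they were 31.5 and 27, within 20 they were 9 and 5, and within 22 they were 9 and 7.5. The NC median was above that of OE-KDM4A on each of the 5 chromosomes, by the least on chromosome 22, but the exact intervals of the 2 medians overlapped on each. At positions that met the rule the medians were 8, 12, 30, 7 and 11 on chromosomes 16, 17, 19, 20 and 22. The NC median was thus close to that of positions on chromosome 19 and below it on chromosome 22.

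**Figure D5:**
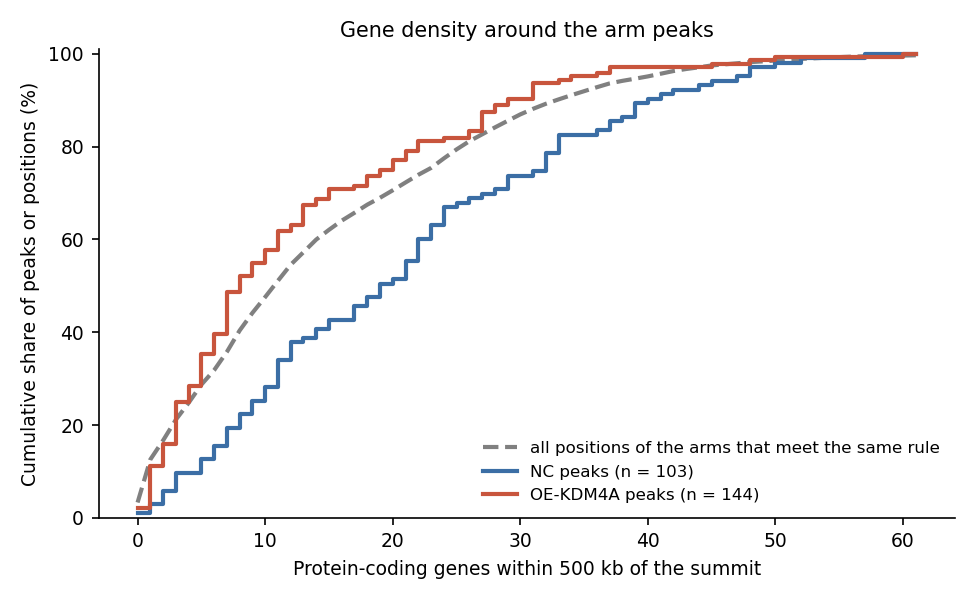
Cumulative share (y axis, percent) of NC peaks (blue), OE-KDM4A peaks (red) and arm positions that meet the rule (grey dashes) by the number of protein-coding genes within 500 kb (x axis). The blue curve runs to the right of the grey one, with medians of 19 and 11, and the red curve mostly to its left, with a median of 8.

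The protein-coding genes that held NC peaks were also shorter. Their median length was 63.3 kb in NC and 152 kb in OE-KDM4A, and it was 97.0 kb over the positions inside protein-coding genes. The exact intervals of the medians were 37.6 to 102 kb and 84.5 to 193 kb, and they overlap. Inside genes whose strand could be read from RefSeq, the summit lay at a median of 51.0% of the span from the start in NC (55 peaks) and 44.3% in OE-KDM4A (51 peaks). The chromosome end lay within 5 Mb for 28 NC peaks (27.2% [18.9 to 36.8]) and 22 of OE-KDM4A (15.3% [9.83 to 22.2]), and for 16.4% of positions. Without chromosome 20 the NC share was 22.7% [14.5 to 32.9], an interval that takes in the 16.4% of positions on all 5 chromosomes.

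Besides the region near ZNF285 and MAF, the 10 strongest NC peaks lay in or near genes of several kinds. Between genes were a peak on chromosome 22 from 47574699 to 47574985 (fold enrichment 10.4, pileup 19), 399 kb from TBC1D22A, and a peak on chromosome 20 from 4262813 to 4262995 (9.66, pileup 21). The latter lay 13.5 kb from ADRA1D, an alpha-1 adrenergic receptor gene. On chromosome 19 one lay in APC2, a relative of the Wnt pathway gene APC (1465257 to 1465521, fold enrichment 8.34). Another lay in PTGER1, the prostaglandin E2 receptor EP1 gene, 1187 bp from its start (14474031 to 14474291, fold enrichment 7.90, pileup 17). None of these 4 overlapped an OE-KDM4A peak. The others were in STXBP4, a syntaxin-binding protein gene on chromosome 17 (55084004 to 55084136, 7.40), in RYR1, in C1QTNF8 on chromosome 16 (1093618 to 1093822, 7.53), and 25.5 kb from the beta defensin gene DEFB125 at the tip of chromosome 20 (62051 to 62197, 5.34).

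The 10 strongest OE-KDM4A peaks included 5 on chromosome 17. One lay in SLC52A1, a riboflavin transporter gene (5038014 to 5038190, fold enrichment 8.60, pileup 30), and one in the long non-coding RNA gene LOC101929823 near the tip of the short arm (117223 to 117434, 8.10, pileup 26). A weaker peak (117732 to 117875, fold enrichment 4.86) lay beside the latter in the same gene. The rest of chromosome 17 were in ADPRM (10701402 to 10701595, 8.92), in LINC01999, 23.4 kb from the p53 pathway phosphatase gene PPM1D (60576662 to 60576822, 7.43), and 195 kb from CA10 (52355100 to 52355249, 7.87). On chromosome 19 a peak of 435 bp in ARHGEF18, a guanine nucleotide exchange factor gene, had 58 fragments over a background of 14.0 (7450642 to 7451076, fold enrichment 3.93). On chromosome 20 one stood 84.1 kb from BTBD3 (12010601 to 12010770, 9.45), and on chromosome 16 one lay in the olfactory receptor gene OR2C1 (3344530 to 3344666, 6.65). A chromosome 20 peak starting at 7783119 had the same −log10 q, 7.85, fold enrichment and pileup as the one in OR2C1.

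On the short arm of chromosome 20 OE-KDM4A peaks were crowded in a stretch that includes HAO1, the gene of a liver hydroxyacid oxidase. A 1 Mb window, from 7 to 8 Mb, held 8 of them and no NC peak, with 2 protein-coding genes. The strongest started at 7783119 (fold enrichment 6.65, pileup 16), 99.8 kb from HAO1, and the next at 7942755 (4.62, pileup 18), 2.37 kb from it. Another lay within HAO1 (7890701 to 7890843, 4.42). A run of 3 started at 7951831, 7952505 and 7953400, within 2 kb of each other, with pileups of 8, 7 and 7 at the lowest background. The last 2 started at 7709748 (fold enrichment 5.77), 173 kb from HAO1, and at 7008633 (4.69), for which BMP2, at 229 kb, was the nearest protein-coding gene. Joining peaks within 1 kb into 1 region counted those 3 as 1. A second crowded window, from 5 to 6 Mb, held 4 weak peaks with pileups of 7 to 9 fragments, at 5235960, 5240125, 5366820 and 5515672, the first 38.1 kb from CDS2.

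Few genes held more than 1 peak. A peak was inside 71 protein-coding genes in NC and 66 in OE-KDM4A, and 9 genes held one in each list. Of these 9, MAF, CBX2, MBD3, RYR1, SPIRE2 and BFSP1 hold the shared peaks described above. In the ubiquitin ligase gene RNF157, the ubiquitin-conjugating enzyme gene UBE2G1 and SLX4IP the peaks of the lists stood apart, by 13.9, 8.31 and 41.7 kb. In NC, 3 genes held 2 peaks. These were CDH4, which encodes R-cadherin (fold enrichment 4.22 and 4.70), SYN3, a synapsin gene (4.39 and 3.76), and ZNF578 (4.83 and 4.18). In OE-KDM4A, 6 genes held 2 peaks. BRIP1, a DNA repair helicase gene, had 5.25 and 3.98, MYO1D, a myosin gene, had 4.98 and 4.72, and the zinc transporter gene SLC39A11 had 3.52 and 3.84. PLCB1, a phospholipase C gene, had 4.25 and 4.37, TASP1 had 5.62 and 5.25, and the homeobox gene ZFHX3 had 3.70 and 4.20. No gene with 2 peaks in one list held a peak in the other.

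Gene families of these arms were counted by the genes with a peak inside or within 5 kb. Over all 3997 protein-coding genes of the arms the counts were 82 in NC (2.05%) and 81 in OE-KDM4A (2.03%). Of 277 zinc finger genes, 3 had one in NC (1.08%) and 6 in OE-KDM4A (2.17%), all on chromosome 19. These were ZNF414 (fold enrichment 4.45), ZNF578 and ZNF813 (4.04) in NC, and ZNF439 (4.98), ZNF69 and ZNF700 (1 peak, 3.98), ZNF875 (6.30), ZNF573 (4.72) and ZNF836 in OE-KDM4A. No zinc finger gene had one in both lists.

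Counts in the other families were small, beside 2.05% in NC and 2.03% in OE-KDM4A over all protein-coding genes. Among 35 olfactory receptor genes, NC had a peak at 0 and OE-KDM4A at 3 (8.57%), OR2C1, OR3A3 and OR10H3, the last with a fold enrichment of 5.25. Of 40 leukocyte receptor genes, LILRB1, an inhibitory receptor gene, had one in NC (2.5%, fold enrichment 4.42) and none did in OE-KDM4A. Of 11 cadherin genes, CDH4 had one in NC and CDH11 in OE-KDM4A (fold enrichment 4.72), 9.09% in each list. Of 13 cytochrome P450 genes CYP2A13 (7.69%), and of 62 keratin and keratin-associated genes KRT25 (1.61%), had one in OE-KDM4A only. Each of these shares rests on 3 genes or fewer. No CEACAM or PSG, metallothionein, chemokine, APOBEC3, beta defensin or kallikrein gene of these arms had one in either list, among 22, 11, 21, 7, 6 and 15 genes.

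Among 21 long genes of neuronal function or fragile sites, 4 had a peak in NC (19.05%) and 6 in OE-KDM4A (28.57%). Only TTC28 had one in both. Over all protein-coding genes the shares were 2.05% and 2.03%. The NC genes included CDH4, SYN3 and TTC28 (fold enrichment 4.58, pileup 8). In OE-KDM4A these were WWOX, the oxidoreductase gene of a common fragile site (5.25, pileup 9), MACROD2 (4.20, pileup 7), PAK5, a kinase gene (4.20, pileup 7), PLCB1, PLCB4 (5.25, pileup 9) and TTC28, beside which the peak stood outside the gene. Long genes offer more room for a peak, and these counts and shares are not corrected for length.

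The 1 kb limit left out 38 of the 141 NC peaks on these arms (27.0% [19.8 to 35.1]) and 35 of the 179 from OE-KDM4A (19.6% [14.0 to 26.1]). On the other arms the same limit took 87 NC peaks (18.7% [15.2 to 22.5]) and 108 from OE-KDM4A (4.88% [4.02 to 5.86]). Near gene ends the lists were thus close in number on the other arms too. Among the peaks just inside it were PTGER1 in NC (1187 bp, −log10 q 9.93) and CBX2 in OE-KDM4A (1259 bp, −log10 q 7.63). Just outside it lay a peak in ACACA in NC (982 bp from a gene end, −log10 q 4.79) and one on chromosome 20 in OE-KDM4A (967 bp, −log10 q 3.58).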

How the data were processed

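H3K9me3 ChIP-seq peak lists of 2 libraries, NC and OE-KDM4A, were analysed, and the 2 input libraries were not analysed by themselves. The submitters' processing notes list Trimmomatic, Bowtie 1.1.2, MACS2 2.1.0 and hg38, with no role or setting for any. The deposited lists give a fold enrichment (a linear ratio), −log10 p, −log10 q and a score equal to 10 times the −log10 q without decimals, all made by the authors. Peaks repeated with identical ends were taken once, at the summit of highest −log10 q (69 of 1234 lines removed in NC, 402 of 4187 in OE-KDM4A).

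Summits were left out from 31.3 to 51.4 Mb on chromosome 16, 17 to 32 on 17, 19 to 33 on 19, 20.6 to 35.4 on 20 and up to 22 on 22. On the other chromosomes the longest stretch without a RefSeq gene (GRCh38.p14), with 5 Mb at both ends, was left out. The last gene end stood for the chromosome end. Arm positions that met the rule were read every 100 bp, assembly gaps included. Pileup and background were recovered by solving the known MACS2 formulas, (pileup + 1) / (background + 1) for the fold and a Poisson tail for p, for a whole-number pileup, which gave −log10 p within 0.001 for all 103 and 144 peaks. A background within 0.1% of the lowest counted as the lowest. Strand came from the RefSeq promoter table.

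No test between conditions was run, with 1 library each. Shares have Clopper-Pearson intervals, and ratios and densities exact intervals of counts. Named peaks are the 10 highest by −log10 q in each list, those in both lists, those in genes with 2 or more or in the families, and those in 1 Mb windows with 4 or more. The lowest-background, pileup and gene-neighbourhood comparisons were chosen after seeing the data. Members and lists were chosen with earlier results of these data known. The steps were tested on simulated data, where 200 of 200 pileups and 60 of 60 planted overlaps were found. The tools were scipy 1.17.1, pandas 2.3.3, matplotlib 3.10.9 and numpy 2.4.6 under Python 3.11.15. The values of some named genes are not reported here.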

Additional observations from a re-analysis of the deposited data

How the results depend on the processing

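Of 130 values under other settings, 97 stayed within the exact interval of the value reported or within 1.5 times a count. No paired analysis was possible because each condition has 1 list. The ratio of OE-KDM4A to NC peaks turned under 2 settings, to 0.214 with lists of equal length and to 0.879 without the lowest background. Equal length took weak peaks from OE-KDM4A alone, which keeps 22 peaks, while NC kept all of its own. The ratio was 2.07 at a fold enrichment of at least 5 and 1.96 at a pileup of more than 10 fragments. Its interval took in equal numbers at −log10 q limits of 5 (1.56 [0.831 to 2.99]) and 10 (1.40 [0.382 to 5.59]) and without chromosome 17 or 20. The lowest-background, pileup and 250 kb settings, the count of genes nearby itself, and leaving out chromosome 20 for gene and arm position, were chosen after seeing the data. The share of the NC list was 3.62% and 1.52% under −log10 q limits of 5 and 10, 6.27% at more than 5 kb from a gene end, and 7.12%, 6.70% and 6.44% without chromosome 16, 17 and 19. That of the OE-KDM4A list was 2.03% and 0.882% at these q limits, 2.91% at the fold limit, 1.89% at equal length, 2.80% at 5 kb, and 3.09%, 2.64% and 2.64% without chromosome 16, 17 and 20. The overlap was 40.0% of NC (2 of 5) and 28.6% of OE-KDM4A (2 of 7) with the limit of 10, 1.72% of OE-KDM4A at the fold limit, 18.2% at equal length, and 15.5% and 11.8% within 50 kb. Above the q limit of 10, 40.0% of NC and 57.1% of OE-KDM4A peaks lay inside a protein-coding gene, from 5 and 7 peaks, so that the order of the lists is not held there. The NC share near chromosome ends was 44.4% (8 of 18) and 60% (3 of 5) at the q limits, and 22.7% [14.5 to 32.9] without chromosome 20. The median of protein-coding genes nearby was 9 in NC and 5 in OE-KDM4A within 250 kb, and 12.5 in OE-KDM4A without chromosome 20. With peaks near gene ends included, NC had 0.540 peaks per Mb of arm, and without the lowest background OE-KDM4A had 0.371. The causes were not tested. Depth is unknown, and most peaks rest on 10 fragments or fewer.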

Other observations

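Peaks called in both lists with exactly the same start and end numbered 2 of the 7 shared peaks on these arms, in CBX2 and BFSP1, and 20 of 404 in the whole lists.

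In OE-KDM4A the summit stood exactly 13 bp from the start of the peak in 17 of the 144 peaks (11.8% [7.03 to 18.2]) and in 191 of the 3785 of the whole list (5.05% [4.37 to 5.79]) and in none of the 1165 NC peaks. NC had an offset of its own, 18 bp, in 23 of the 103 peaks (22.3% [14.7 to 31.6]) and in 130 of the 1165 (11.2% [9.41 to 13.1]), against 11 of the 3785 in OE-KDM4A.

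The same fold enrichment, 4.20, stood beside 17 of the 144 OE-KDM4A peaks, since a pileup of 7 fragments over the lowest background gives it.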
